A study of Mus musculus with 6 samples.

Results

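The receptors through which pituitary, placental and ovarian hormones act on the ovary, together with the anti-Müllerian hormone (AMH) axis, were examined in 6 tumours of mouse ovarian cancer cells on 6 arrays, 3 from placebo-treated and 3 from estradiol-treated (E2) mice. The genes were fixed by name as Fshr, Lhcgr, Prlr, Ghr, Oxtr, Amh, Amhr2, Insl3 and Rxfp1, and a gene counted only where the platform annotation gave a probe set to it alone. That left 6 of the 9, namely Fshr, Ghr, Oxtr, Amh, Amhr2 and Rxfp1, out of 19937 genes with such a probe set, each with 1 probe set. The 1 probe set that names Insl3 names Jak3 as well, so Insl3 was left out, and Lhcgr and Prlr were not analysed here.

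All 6 tumours grew from MASE2 cells, which are ascites cells of a tgCAG-LS-TAg mouse, a transgenic model in which Cre, delivered by adenovirus into the ovarian bursa, switches on the SV40 large and small T antigens in the ovarian surface epithelium. That donor mouse had itself received E2, per the labels. The cells were injected into SCID mice, which lack mature T and B lymphocytes, and a placebo or E2 pellet was implanted at the same time. Tumours were removed at loss of wellness, and the labels give no day, age or pellet dose. All tumours share this 1 cell line and are bulk tissue with host cells, so fewer cells of a type and less RNA per cell cannot be told apart.

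Follicle-stimulating hormone acts through FSHR on granulosa cells and raises cyclic AMP, which drives follicle growth and aromatase. Growth hormone and prolactin bind receptors of the cytokine family that signal through JAK2 and STAT5, and oxytocin and relaxin bind the G-protein-coupled receptors OXTR and RXFP1. AMH, a TGF-β family ligand made by granulosa and Sertoli cells, binds its own type II receptor, AMHR2, which activates type I receptors of the bone morphogenetic protein branch, and these phosphorylate SMAD proteins. AMHR2 is known from granulosa cells, Sertoli cells, Müllerian duct mesenchyme and part of ovarian cancers.

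Amhr2, the AMH receptor gene, was the 1 member whose groups did not overlap, with E2 higher, as in 14.9% of all genes. The groups overlapped for its ligand gene Amh. Amhr2 was 3.33-fold higher in the E2 tumours, but on all 6 arrays the difference missed the threshold after adjustment over all genes (limma adjusted p = 0.0704). Without placebo replicate 3, Amhr2 was 2.68-fold higher and passed (limma adjusted p = 0.00406), as did 11.6% of all genes. Ghr lay well above background in every tumour and was near the same level in both groups. Oxtr lay around background in the placebo tumours and just above it in the E2 tumours. Fshr and Rxfp1 stayed at or below background on all 6 arrays.

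The values were log2 intensities. No detection call was at hand, so the background of an array was set from 1194 genes of olfactory and vomeronasal receptors, which an ovarian tumour is not known to use. The 95th percentile of these genes on each array, 4.35 to 4.50 over the 6 arrays, served as its background level, and 70.9% to 72.0% of all genes lay above it. A probe set at that level is not shown to detect its transcript. Some of the background genes lie above it, so a value above it does not by itself show a transcript. The level of a probe set also depends on its probes, so members are compared between tumours and not with each other.

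Placebo replicate 3 stood apart from the other arrays. Its Pearson r with them, across 19937 genes that are not independent replicates, was 0.857 to 0.865, against 0.960 to 0.994 among the others. All 11 intestinal markers were highest there, with a mean log2 value of 10.30 against 4.42 to 4.55 in the other placebo tumours and 4.31 to 4.77 in the E2 tumours. Reg3b measured 12.15 and Zg16 11.42 in that sample. Values without this array are therefore given beside those of the members and the lists, and of most other genes named. Greb1, the gene of the series title, was 3.41 log2 units higher with E2 on all 6 arrays (SE 0.16, adjusted p = 0.00131) and 3.33 without placebo replicate 3, as a check of the group labels. Of 9 markers of ovarian surface epithelium and mesothelium, 0 were at background on all arrays. The same held for the granulosa and Sertoli lists, so this does not single out the labelled cell type. In contrast, 5 of 8 oocyte markers were at or below background on every array. Of the other oocyte markers, Ooep was above background on all 6 arrays, Gdf9 on 4 and Zp1 on 2.

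**Figure D1:**
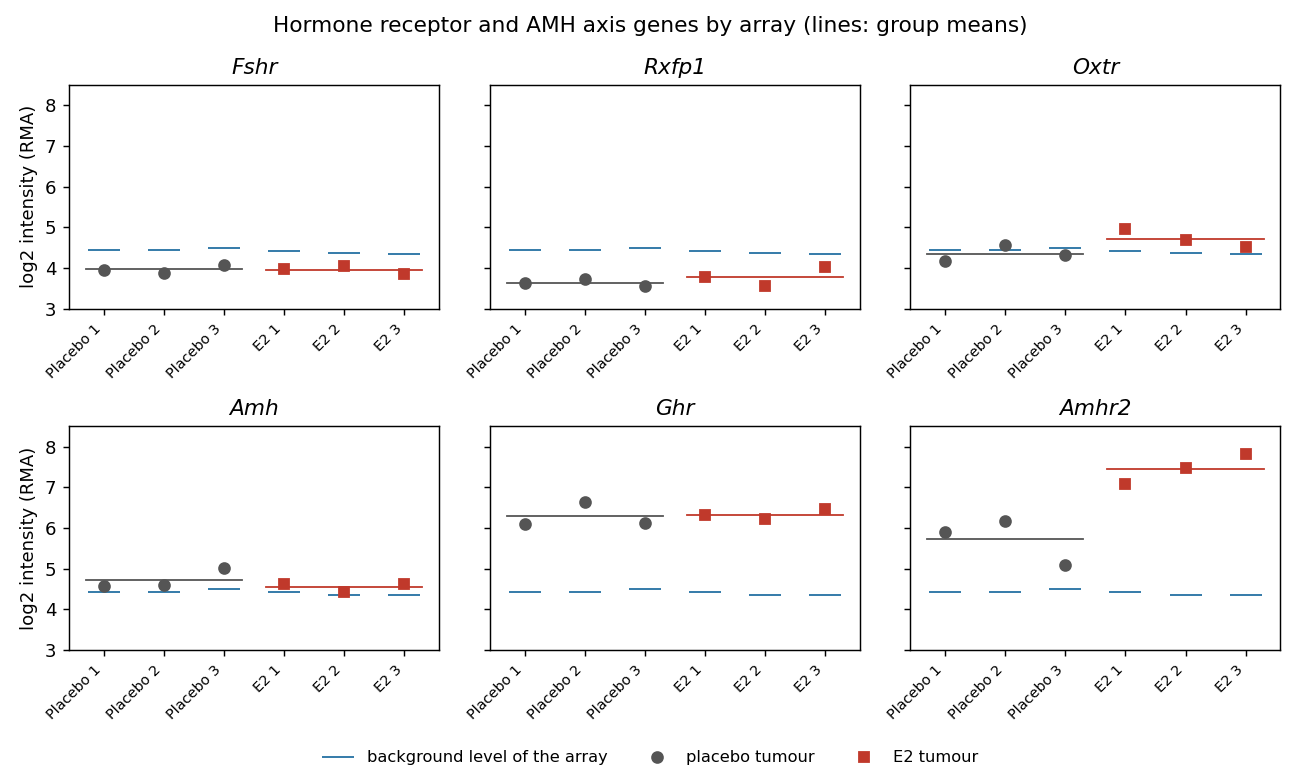
Log2 intensity of the 6 genes on each array, with grey circles for placebo tumours, red squares for E2 tumours, long lines for group means and short blue marks for the background level of the array. Amhr2 lies between 5.10 and 6.16 in the placebo tumours and between 7.08 and 7.82 in the E2 tumours, while Fshr and Rxfp1 lie below the blue marks on all 6 arrays.

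The promoter windows are shown for Amhr2, the member whose groups did not overlap, and for Fshr and Oxtr, which stayed at or close to background. Each is the 250 bases before the RefSeq start site in GRCm38.p6, read 5′ to 3′ on the gene's strand. Capitals mark GGTCA, the single arm of an oestrogen response element, searched on both strands, and in Amhr2 the longer SF-1 site AAGGTCA that contains it. SF-1 is the product of Nr5a1, a nuclear receptor of gonadal and adrenal cells. The windows lie at chr15:102445117-102445366 (plus strand) for Amhr2, chr17:89200676-89200925 (minus strand) for Fshr and chr6:112489826-112490075 (minus strand) for Oxtr.
Amhr2: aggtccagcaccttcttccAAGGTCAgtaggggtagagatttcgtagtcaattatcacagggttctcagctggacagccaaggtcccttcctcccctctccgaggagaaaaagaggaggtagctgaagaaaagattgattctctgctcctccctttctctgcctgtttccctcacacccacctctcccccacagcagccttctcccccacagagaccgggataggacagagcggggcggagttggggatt
Fshr: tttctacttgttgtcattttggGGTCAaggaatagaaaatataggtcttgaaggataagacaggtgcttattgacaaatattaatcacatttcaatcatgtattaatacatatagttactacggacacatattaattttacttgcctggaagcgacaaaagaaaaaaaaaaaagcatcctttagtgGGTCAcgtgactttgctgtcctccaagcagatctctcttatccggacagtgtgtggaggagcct
Oxtr: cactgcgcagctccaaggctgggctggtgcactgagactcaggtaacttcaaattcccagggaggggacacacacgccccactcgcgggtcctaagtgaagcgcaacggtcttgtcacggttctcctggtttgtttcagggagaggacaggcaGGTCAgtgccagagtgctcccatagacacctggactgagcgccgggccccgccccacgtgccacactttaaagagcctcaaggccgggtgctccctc

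The Amhr2 window held 1 match to AAGGTCA, which began at position -231 from the start site, and no other GGTCA. The Fshr window held 2 GGTCA matches, at -228 and -64, and the Oxtr window held 1, at -97, none of them extended to AAGGTCA. Neither of the 2 Ghr windows held a match. The full oestrogen response element, GGTCA and TGACC with 3 bases of any kind between them, was absent from all 5 windows of these 4 genes. So was AGATAA, 1 form of the GATA site, and both were searched on both strands. Other forms, such as TGATAA, were not searched, so the windows are not shown to lack a GATA site. Over 32851 RefSeq windows of the same length, AAGGTCA occurred in 4.08%, GGTCA in 35.2% (those inside AAGGTCA or the full element included), AGATAA in 9.99% and the full element in 0.0639%. A match describes letters and not a bound site.

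Amhr2 encodes the type II receptor that makes a cell responsive to AMH. It measured 5.91, 6.16 and 5.10 log2 units in placebo replicates 1, 2 and 3 and 7.08, 7.46 and 7.82 in E2 replicates 1, 2 and 3. Each E2 tumour lay above each placebo tumour, and placebo replicate 3 was the lowest of all. The smallest gap between the groups was that between placebo replicate 2 and E2 replicate 1. All 6 values were above background, and the E2 values stood 2.65 to 3.47 log2 units above the background level of their arrays.

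The group means of Amhr2 were 5.72 ± 0.55 with placebo and 7.46 ± 0.37 with E2 (SD, n = 3 each). The difference was 1.74 log2 units (SE 0.32, 95% confidence interval 0.95 to 2.52, unadjusted p = 0.00160 in limma), and it did not pass after adjustment. Of the 6 members, 0 passed in limma on 6 arrays at an adjusted p under 0.05, where 1.38% of all genes did. At an unadjusted p under 0.05, 1 of the 6, Amhr2, and 16.5% of all genes were counted. Amhr2 was also the 1 member whose groups did not overlap, with E2 higher, a pattern that 14.9% of all genes showed, and 26.3% in either direction. An exact two-sided permutation test of Amhr2 gave p = 0.10, the smallest value that 3 tumours against 3 allow.

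Without placebo replicate 3 the Amhr2 difference was 1.42 log2 units, or 2.68-fold (SE 0.20, 95% confidence interval 0.96 to 1.89), and it passed. In that fit 11.6% of all genes passed, 6.40% of genes with E2 higher and 5.21% with E2 lower, so a call is more common there. The direction stayed the same whichever array was left out, with differences of 1.42 to 1.96 log2 units, and leaving out any array other than placebo replicate 3 gave an adjusted p of at least 0.0848.

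The intestinal markers of placebo replicate 3 went with the lowest Amhr2 value, and some of the other marker lists moved with the groups. The mean of 9 markers of ovarian surface epithelium and mesothelium was 7.88 to 8.46 in the placebo tumours and 6.47 to 6.71 in the E2 tumours. On 6 arrays all 9 had lower means with E2, and 1 of them (Krt7) passed in limma. Without placebo replicate 3, 6 passed as lower. Krt8 then differed by -0.12, Krt18 by 0.24 and Krt19 by -0.68 log2, and these missed the threshold. The mean of 9 granulosa markers was 4.99 to 5.30 with placebo and 6.07 to 6.20 with E2, and 3 of them (Inha, Inhba and Inhbb) passed as higher, or 5 without placebo replicate 3. On 6 arrays 6 of those 9 had higher means with E2 and 3 lower. The 3 were Kitl (-0.30 log2), Fst (-0.27) and Foxl2, the granulosa identity factor (-0.01). None of the 9 was at background on all arrays. The mean of 8 luteal markers was 4.69 to 5.22 with placebo and 6.80 to 7.15 with E2. Of the 8, 6 had higher means with E2 and 2 lower. On 6 arrays 3 of them (Akr1c18, Hsd3b1 and Cyp11a1) passed as higher, or 6 without placebo replicate 3. Parm1 differed by -0.50 log2 (-0.21 without that array), and Ptgfr, at background throughout, by -0.17. The 5 Sertoli markers had a median change of 0.07 log2 (0.08 without placebo replicate 3), and 0 passed in either fit. The 7 theca and interstitial markers had a median of -0.15 (-0.13 without that array). Of these, 0 passed on 6 arrays, or 2 as higher and 1 as lower without that array.

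Lists of macrophage, adipocyte, endothelial and fibroblast markers had negative median changes with E2, at -0.86, -0.53, -0.53 and -0.51 log2. Without placebo replicate 3 these medians were -1.33, -0.58, -0.39 and -0.73. The median of the 6 smooth muscle markers was -0.53 on 6 arrays and -0.09 without that array. The mean of 9 macrophage markers was 6.75 to 7.97 with placebo and 6.42 to 6.86 with E2, all 9 had lower means, and 0 passed on 6 arrays but 8 as lower without placebo replicate 3. The mean of 7 adipocyte markers was 5.38 to 5.76 with placebo and 5.001 to 5.10 with E2, with 1 passing as lower, or 5 as lower and 1 as higher without that array, and Lep at background. The mean of 6 endothelial markers was 5.56 to 5.79 with placebo and 5.02 to 5.34 with E2, with 0 passing, or 3 as lower without that array. The mean of 5 fibroblast markers was 8.53 to 9.07 with placebo and 8.16 to 8.62 with E2, with 0 passing, or 3 as lower and 1 as higher without that array. The part of these markers in the Amhr2 difference was not tested.

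The genes on each side of Amhr2 on its chromosome did not share its difference. Sp1, a general transcription factor gene, differed by -0.07 log2 units (SE 0.13, adjusted p = 0.826), and by -0.19 without placebo replicate 3. Prr13 differed by -0.57 (SE 0.61, adjusted p = 0.661), with a value of 9.19 in placebo replicate 3 and 6.94 to 7.18 on the other arrays, and by 0.17 without that array. Over the 12 nearest measured neighbours of the 6 members, 0 passed on 6 arrays in limma (1 at an unadjusted p under 0.05), and 1 passed without placebo replicate 3. That gene was Rad18, a DNA repair ubiquitin ligase gene beside Oxtr, at 0.75 log2 units on 6 arrays (adjusted p = 0.208) and 0.47 without the array (adjusted p = 0.0146).

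Klhdc2, a substrate receptor gene of a ubiquitin ligase, followed Amhr2 most closely over the 6 arrays (Pearson r = 0.999). Uggt2, a glycoprotein folding sensor of the endoplasmic reticulum, had r = 0.997 and Slc7a5, an amino acid transporter gene, r = 0.996. These 6 points share arrays and the split into groups, and of 3948 genes with a range of at least 1 log2 unit, 485 had r above 0.9 with Amhr2, so the likeness is a description. The 3 genes were 0.93, 0.85 and 0.65 log2 units higher with E2, and they too missed the threshold on 6 arrays (adjusted p = 0.0890, 0.106 and 0.118).

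**Figure D2:**
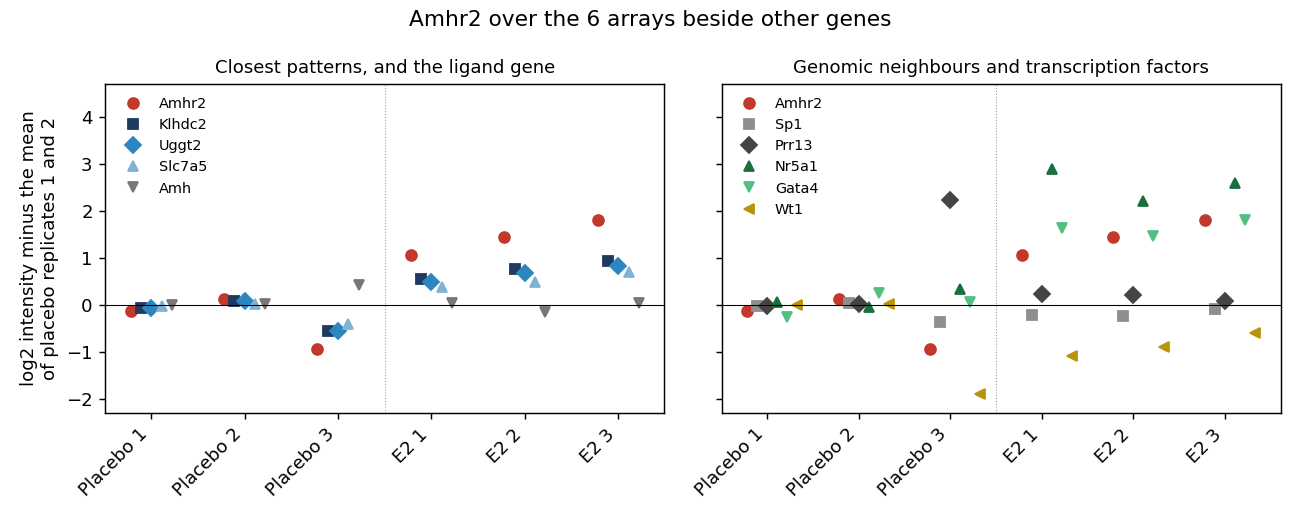
Log2 intensity minus the mean of placebo replicates 1 and 2 for Amhr2 and other genes on each array, with the placebo arrays left and the E2 arrays right of the dotted line. Klhdc2, Uggt2 and Slc7a5 take the same order over the arrays as Amhr2, lowest in placebo replicate 3, and Nr5a1 and Gata4 are high in the E2 tumours. Wt1 is lowest in placebo replicate 3, below all 3 E2 tumours, while Amh and Sp1 lie close to 0 in the E2 tumours and Prr13 is high in placebo replicate 3 alone.

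Amh, the ligand gene, lay just above background and did not separate the groups. It measured 4.58, 4.60 and 5.004 in placebo replicates 1, 2 and 3 and 4.62, 4.42 and 4.61 in the E2 tumours. Placebo replicate 3 held the highest value, and the other 5 tumours overlapped. The difference was -0.18 log2 units (SE 0.14, 95% confidence interval -0.53 to 0.17, adjusted p = 0.567), and -0.04 without placebo replicate 3 (interval -0.27 to 0.19). Amh was above the background level on all 6 arrays, by 0.06 log2 units in E2 replicate 2, yet it passed the stricter level, the 99th percentile of the background genes, on 1 array only, that of placebo replicate 3. Its neighbours Sf3a2, a splicing factor gene, and Jsrp1 differed by 0.21 and -0.11 log2 units, or 0.03 and -0.06 without placebo replicate 3, and did not pass.

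No partner of AMHR2 passed on 6 arrays, and those that passed without placebo replicate 3 were lower with E2. Of 13 genes for type I receptors, SMAD proteins and the ID genes they induce, 0 passed in limma on 6 arrays, where 1.38% of all genes did. Their median change was -0.11 log2 (-0.15 without placebo replicate 3) against -0.01 for all genes. The 3 of smallest p were Bmpr1b (-0.44 log2, SE 0.13), Id2 (-1.06, SE 0.39) and Smad9 (-0.31, SE 0.13). Bmpr1b, a type I receptor gene, was above background on 1 placebo array and on no E2 array. Without placebo replicate 3, 3 of the 13 passed as lower, namely Id2 at -1.41, Bmpr1a at -0.54 and Bmpr1b at -0.50 log2. In that fit 5.21% of all genes passed as lower. Id1 and Id3, the usual transcriptional readouts of this branch, differed by 0.14 and -0.13 log2 on 6 arrays and did not pass. Without placebo replicate 3, where Id3 was lowest, Id3 differed by -0.40 (SE 0.11, adjusted p = 0.0525) and Id1 by 0.05, and both again missed the threshold.

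Factors known from the Amh and Insl3 promoters included members that rose. Of 11 measured, 2 passed as higher and 0 as lower (median 0.01 log2), or 4 higher and 1 lower without placebo replicate 3 (median 0.10). Nr5a1 measured 5.11, 5.02 and 5.40 with placebo and 7.95, 7.27 and 7.64 with E2, without overlap, and rose by 2.45 log2 units (SE 0.20, adjusted p = 0.00731), or 2.56 without placebo replicate 3. Gata4, a zinc-finger factor of gonadal somatic cells, rose by 1.61 (SE 0.16, adjusted p = 0.0136), or 1.63 without that array. Sox9 and Foxl2, which act on Amh in Sertoli and granulosa cells, differed by -0.40 and -0.01, or -0.16 and 0.10 without that array, and did not pass. Wt1, lowest in placebo replicate 3 at 6.37, differed by -0.23 on 6 arrays with overlapping groups and fell by 0.87 log2 units without placebo replicate 3 (adjusted p = 0.00852).

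Fshr, the receptor gene that marks granulosa cells, stayed below background in every tumour. It measured 3.95, 3.88 and 4.09 with placebo and 3.99, 4.04 and 3.86 with E2, against background levels of 4.35 to 4.50. The groups overlapped throughout. Their difference was -0.01 log2 units (SE 0.10, 95% confidence interval -0.25 to 0.22, adjusted p = 0.965), or 0.045 without placebo replicate 3, and 81.9% of the background genes had a lower mean than Fshr. The interval covers the array signal, and at this level no statement on the transcript follows.

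**Figure D3:**
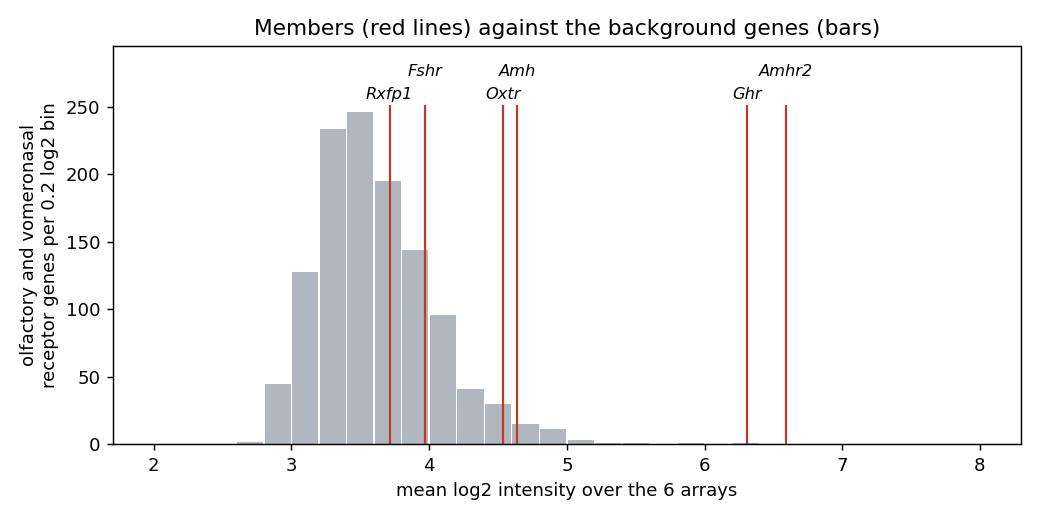
Mean log2 intensity over the 6 arrays, with grey bars for the number of the 1194 olfactory and vomeronasal receptor genes in each bin and red lines for the 6 members. Rxfp1 and Fshr lie inside the bulk of the background genes, Oxtr and Amh at its upper edge, and Ghr and Amhr2 beyond nearly all of it.

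No change passed among the gonadotropin genes or their signalling genes. Of 16 measured genes of gonadotropins and their cyclic AMP pathway, 0 passed on 6 arrays, with a median of 0.01 log2 (-0.07 without placebo replicate 3). Cga and Fshb, the subunit genes of follicle-stimulating hormone, were at or below background on all arrays. Lhb, a luteinizing hormone subunit gene, was above background on all 6 arrays. It differed by -0.24 log2 units (SE 0.10, limma adjusted p = 0.293), or -0.19 without placebo replicate 3. Arrb1, which encodes a β-arrestin that uncouples such receptors, had the smallest p (-1.24 log2, SE 0.20, adjusted p = 0.0538), followed by the protein kinase A subunits Prkar1a (0.66, SE 0.19) and Prkar2b (0.89, SE 0.35). Without placebo replicate 3, Arrb1 fell by 1.07 and Prkar1a rose by 0.45 log2 units, and Prkar2b differed by 0.49 and missed the threshold (adjusted p = 0.0614).

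Genes that gonadotropins are known to induce in granulosa and luteal cells rose in part. Of 18 measured, 4 passed as higher and 0 as lower, with a median change of 0.40 log2, and 10 higher and 1 lower passed without placebo replicate 3 (median 0.68). On 6 arrays 15 had higher means with E2 and 3 lower. The gene that passed as lower was Edn2, at -0.56 log2 without placebo replicate 3 (limma adjusted p = 0.0238) and -0.45 on 6 arrays. Inha, the inhibin alpha subunit, rose by 3.81 log2 units (SE 0.10, adjusted p = 0.000223) and Inhba, the activin subunit, by 1.47 (SE 0.20, adjusted p = 0.0337). Without placebo replicate 3 the rises were 3.81 and 1.68. Cyp11a1, the first enzyme of steroid synthesis, was at or below background on all 3 placebo arrays and was at least 16.2-fold higher with E2 when those values were raised to the background level (adjusted p = 0.000442 as measured, and 1.306e-05 without placebo replicate 3). Pgr rose by 2.64 log2 units (SE 0.37, adjusted p = 0.0376), and by 2.58 without placebo replicate 3, and 1 of its 3 placebo values was above background. Pgr is an oestrogen target as well, and the list does not separate the hormones. Fshr was below background and Lhcgr was not analysed, so the part of the gonadotropin receptors was not tested.

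Ghr, the growth hormone receptor gene, was above background on all 6 arrays and level between the groups. It measured 6.10, 6.63 and 6.12 with placebo and 6.31, 6.22 and 6.46 with E2. Placebo replicate 2 was the highest tumour and placebo replicate 1 the lowest, so the E2 values lay inside the placebo range. The difference was 0.04 log2 units (SE 0.17, 95% confidence interval -0.37 to 0.45, adjusted p = 0.924), and -0.04 without placebo replicate 3 (interval -0.41 to 0.33). A change of more than 0.45 log2 in either direction lies outside the interval on 6 arrays. The nearest measured genes, Ccdc152 and Fbxo4, differed by 0.22 and -0.08, or 0.26 and 0.22 without placebo replicate 3, and did not pass, with Ccdc152 at or below background on all arrays.

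Downstream of growth hormone and prolactin receptors, 2 of 18 measured genes passed as higher and 0 as lower on 6 arrays (median 0.10 log2, and 0.14 without placebo replicate 3). Stat5a, the transcription factor gene that both receptors activate, measured 6.26, 6.30 and 6.11 with placebo and 6.99, 6.87 and 7.04 with E2. The groups did not overlap, and Stat5a rose by 0.75 log2 units (SE 0.09, adjusted p = 0.0290), or 0.69 without placebo replicate 3. Igf1, the growth factor that growth hormone induces in liver and that oestrogen induces in other tissues, rose by 1.48 (SE 0.23, adjusted p = 0.0475), or 1.31 without that array. Socs2, a STAT5-induced inhibitor of growth hormone signalling, measured 6.11, 8.07 and 6.94 with placebo and 9.43, 9.20 and 9.35 with E2.

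The Socs2 difference of 2.29 log2 units (SE 0.47) missed the threshold (adjusted p = 0.0885) and passed without placebo replicate 3 at 2.24 (adjusted p = 0.0204). In that fit 5 of the 18 passed as higher and 1 as lower. Cish, another STAT5-induced inhibitor, differed by -0.00 log2 on 6 arrays and by 0.12 without placebo replicate 3, and passed in neither. Prl and Gh, the hormone genes, were at or below background on every array.

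**Figure D4:**
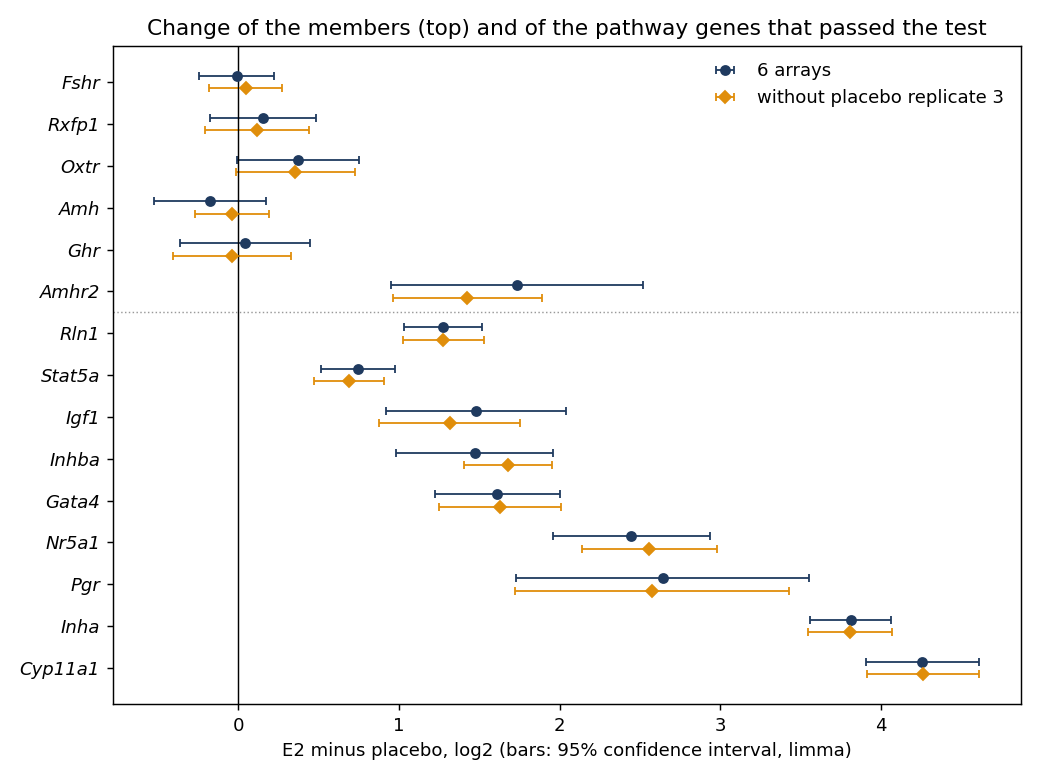
Change from placebo to E2 in log2 units with 95% confidence intervals from limma, for the 6 members above the dotted line and the 9 pathway genes that passed on 6 arrays below it, with blue circles for 6 arrays and orange diamonds for the fit without placebo replicate 3. Of the members, Amhr2 alone has intervals that leave out 0, and the 9 pathway genes have intervals above 0 in both fits.

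Oxtr, the oxytocin receptor gene and a classical oestrogen target in the uterus, lay close to background. It measured 4.18, 4.56 and 4.33 in placebo replicates 1, 2 and 3 and 4.97, 4.68 and 4.53 in E2 replicates 1, 2 and 3. The groups overlapped, since placebo replicate 2 was above E2 replicate 3. Oxtr was above the background level on 1 of 3 placebo arrays and on all 3 E2 arrays, and above the 99th percentile of the background genes on 1 array in all. The difference was 0.37 log2 units (SE 0.16, 95% confidence interval -0.01 to 0.75, adjusted p = 0.314), and 0.36 without placebo replicate 3 (adjusted p = 0.222).

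Of 10 measured genes of oxytocin and vasopressin signalling, 0 passed on 6 arrays, and 9 had lower means with E2 (median -0.21 log2). Placebo replicate 3 was the highest array for 6 of the 10, and without it the median was -0.06. Gna11 and Plcb3, for a G-protein subunit and a phospholipase of this pathway, then turned direction, from -0.31 to 0.18 and from -0.39 to 0.28 log2, and passed in neither fit. Rgs2, a brake on Gq signalling, had the smallest p, with a difference of -1.11 log2 units (SE 0.31, adjusted p = 0.170) and 1 of its 3 E2 values above background. Gnaq, the Gq alpha subunit, differed by -0.27 and Avpr1a, a vasopressin receptor gene, by 0.42, or -0.28 and 0.21 without placebo replicate 3. Rgs2 was the 1 gene of the list that passed without placebo replicate 3, where it fell by 0.75 log2 units (adjusted p = 0.00927). Placebo replicate 3 had the highest Rgs2 value, 6.09, and the smooth muscle markers were high there too, with a mean of 8.29 against 6.02 to 6.68 on the other arrays. A link between the Rgs2 values and these markers was not tested.

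Rxfp1, the relaxin receptor gene, was below background in every tumour. It measured 3.62, 3.73 and 3.56 with placebo and 3.79, 3.56 and 4.02 with E2, with overlapping groups. The difference was 0.15 log2 units (SE 0.14, 95% confidence interval -0.18 to 0.48, adjusted p = 0.600), or 0.11 without placebo replicate 3, and 64.2% of the background genes had a lower mean. The neighbours 4930579G24Rik and Tmem144 differed by 0.72 and 0.11, or 0.34 and 0.45 without placebo replicate 3, and did not pass.

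The relaxin gene Rln1, in contrast, rose. It measured 5.01, 4.79 and 4.90 in the placebo tumours and 6.07, 6.24 and 6.21 in the E2 tumours, above background on all 6 arrays and without overlap. The rise was 1.27 log2 units, or 2.42-fold (SE 0.10, 95% confidence interval 1.03 to 1.51, adjusted p = 0.00615), and it was 1.27 without placebo replicate 3. Rln1 was the 1 of 7 relaxin family genes that passed on 6 arrays, and the list had a median of 0.10 log2, and of 0.00 without placebo replicate 3. Insl6, a peptide gene of the same family, differed by 0.51 (SE 0.13, adjusted p = 0.134) and rose by 0.61 without placebo replicate 3 (adjusted p = 0.00885). Rxfp2, the receptor gene for INSL3, was at or below background on all 6 arrays.

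Over the 7 pathway lists together, 9 of 92 measured genes passed as higher and 0 as lower on 6 arrays, and 21 as higher and 8 as lower without placebo replicate 3. The share of all genes passing as higher was 1.06% on 6 arrays. Without placebo replicate 3 the shares were 6.40% as higher and 5.21% as lower. The lists hold known oestrogen targets and were drawn up with results of these data known, so their counts describe these genes and are not independent support.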

How the data were processed

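Each of 6 tumours gave RNA for 1 Affymetrix array of mouse whole transcripts, and the groups and replicate numbers come from the sample titles. The submitters' processing notes name RMA for the deposited log2 intensities, and the sources used here give no software version. RMA normalises across arrays, so tissue mixed into 1 sample can shift other genes of that array, and it compresses differences near background. No columns of sample values were left unmapped (0).

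Of 34760 probe sets, 21640 had 1 gene symbol, 1321 several and 11799 were unlisted, and 21553 were matched by gene identifier to RefSeq (GRCm38.p6). The probe set with the highest mean stood for a gene, leaving 19937 genes, and no dim gene was removed. The test was limma 3.58.1 (lmFit, then eBayes, R 4.3.3) on E2 against placebo without covariates, two-sided, with Benjamini-Hochberg adjustment over all genes and a threshold of 0.05. The step was tested on simulated data. P-values measure the spread between tumours.

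Members and lists were chosen with earlier results of these data known. Named genes were the members, up to 6 passing genes of each list (or the 3 of smallest p where none passed), the neighbours, the 3 closest patterns and the checks Greb1, Reg3b and Zg16. Others, such as Socs2, Cish, Insl6, Bmpr1a, Wt1, Foxl2, Sox9, Id1 and Id3, were named after their values were seen. Same-numbered tumours had correlations of deviations of -0.029, -0.18 and -0.13, against -0.12 to 0.24 for different numbers. These values gave no sign of pairing. Placebo replicate 3 weighs on the deviations, so they cannot exclude it. Promoters are RefSeq sequences of GRCm38.p6, found for 4 of the 6 members, and were cut to the 250 bases before the start. Alternatives were each array left out, a replicate block, filters on dim genes, other probe set rules, scalings, variances, array weights and thresholds, and other background levels.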

Additional observations from a re-analysis of the deposited data

How the results depend on the processing

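Amhr2 had a higher mean with E2 under all alternatives tried. It was the 1 member that passed without placebo replicate 3 (1.42 log2), with genes below the median signal left out (1.74 log2, adjusted p = 0.0494), with array weights (1.43 log2, adjusted p = 0.0111), at an adjusted p under 0.10 and at an unadjusted p under 0.05 with a 1.5-fold change (1.74 log2 in both), against 0 members on 6 arrays. Its difference ranged from 1.42 to 1.96 over the fits without 1 array. With the replicate block Amhr2 had an adjusted p of 0.274, and pathway genes passing as higher went from 9 to 2 and all such genes from 211 to 10. Pathway genes passing as higher were 19 with array weights and 18 with the unadjusted rule, and 2 to 21 over the fits without 1 array. Those passing as lower, 0 in the main comparison, were 1 with either filter on dim genes, with the trended and robust variance and at an adjusted p under 0.10, 3 with the unadjusted rule, 4 with array weights and 0 to 8 without 1 array. Of the neighbours, 0 to 1 passed as higher without 1 array, and 1 with array weights or the unadjusted rule. Over all genes, 31 to 1276 passed as higher and 0 to 1039 as lower without 1 array (211 and 65 on all 6), 1026 and 760 with array weights, 543 and 193 at an adjusted p under 0.10, 769 and 455 with the unadjusted rule, and 0 as lower with the block, while median centring gave 363 as higher. Near 0, Fshr changed sign with quantile normalization (0.0527), median centring (0.0725) and array weights (0.0496), and ranged from -0.0565 to 0.045 without 1 array (0.045 without placebo replicate 3 and 0.040 without E2 replicate 3). Ghr changed sign with quantile normalization (-0.030) and array weights (-0.0329) and ranged from -0.0501 to 0.21 without 1 array (negative without placebo replicates 1 and 3 and E2 replicate 3). Members near background were 2 (Fshr and Rxfp1) with the 99th percentile and with the lower quartile of genes, and 4, with Oxtr and Amh, with the median of genes. The causes of these shifts were not tested. The filter at the 25th percentile removed Fshr and Rxfp1 and that at the median also Oxtr and Amh, so those fits give no value for them, and the number of arrays limits all intervals.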
